A study of Mus musculus with 16 samples.

Results

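The BCL2 family genes described here are Bcl2, Bcl2l1, Mcl1, Bax, Bak1, Bid, Bad, Bmf and Bcl2l11. They were taken by gene symbol from a gene count table of 55573 gene records, where all 9 were found, and all 9 were among the 13107 genes with enough reads to be tested. RNA was sequenced from RAW264.7 cells, a macrophage-like mouse line that came from a tumour induced by Abelson leukaemia virus. The 4 groups held 4 libraries each and are named by their labels: the parental line (Parental) and knockdowns (KD) of ORP5/8, of ATP11A/C or of CDC50A. All cells were plated in complete medium and harvested 1 day later, and the labels name no death stimulus. ORP5 and ORP8 move phosphatidylserine out of the endoplasmic reticulum into the cell surface membrane, ATP11A is a flippase that returns it to the inner leaflet, and CDC50A is the subunit that such flippases need. KD libraries have names that start with "sh" (not spelled out in the labels) while those of Parental start with "Ctrl" and mention no construct, so carrying a construct and losing its target cannot be told apart. The labels say neither whether a KD line is 1 clone nor whether the libraries of a group came from separate cultures. The p-values therefore reflect only how far these libraries vary, part of which may be technical. Where 3 values follow for the KD groups without a name, they are in the order ORP5/8, ATP11A/C, CDC50A.

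BCL2 family proteins decide whether the outer mitochondrial membrane is opened during apoptosis. Bax and Bak1 are the effectors that form pores in it, Bcl2, Bcl2l1 and Mcl1 are guardians that hold effectors and activators in check, and the BH3-only members Bid, Bad, Bmf and Bcl2l11 bind guardians or activate effectors. In macrophages these proteins set survival during infection, growth factor loss and inflammation, and many of them are also controlled by phosphorylation, cleavage or turnover, which RNA levels do not show.

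Library totals ran from 24020891 to 41543050 counts. ATP11A/C KD 1 differed most from its own group: a chi-square of its counts against each of its group mates gave 20.7 to 44.9 per degree of freedom, where the other pairs of that group gave 7.49 to 18.3 and pairs within the other groups 4.88 to 18.1. Without that library edgeR called 5 of the 9 members at an adjusted p under 0.05 against Parental (6 with it). It called 6 between ORP5/8 KD and ATP11A/C KD (6) and 5 between CDC50A KD and ATP11A/C KD (4). Over all tested genes the calls in these comparisons were 4509, 4907 and 3841 without it. With it they were 4926 (37.6%), 5070 (38.7%) and 3428 (26.2%), so the member counts are not read as particular to the family. Mcl1 lost its call against Parental (adjusted p = 0.0543), and Bak1 gained one between CDC50A KD and ATP11A/C KD (0.0116). The log2 fold changes against Parental without it and with it were 1.22 and 1.32 for Bmf, -0.60 and -0.59 for Bcl2, and -0.54 in both for Bcl2l1. They were 0.17 and 0.20 for Bax and -0.24 and -0.18 for Bak1. All 8 macrophage markers examined reached 1 CPM (counts per 1000000 after scaling) in each group, their summed level was 4671 to 4941 CPM in Parental, 3551 to 3721, 3796 to 4218 and 4581 to 4777 in the KD groups, and no marker of fibroblasts, lymphocytes, neutrophils, mast cells or epithelium reached 1 CPM. The mitochondrial share of counts was 1.08% to 1.26% in Parental and 1.36% to 1.78% over the KD libraries, and its part in the results below was not tested. Among the targeted genes, Osbpl8 (ORP8) stood at 29.4% of its Parental mean in ORP5/8 KD, but also at 37.6% in ATP11A/C KD, and CDC50A KD had 34.5%. Osbpl5 (ORP5) had 2 to 13 counts per library and was not tested by edgeR. Atp11a stood at 34.9% in ATP11A/C KD, 86.8% in ORP5/8 KD and 70.1% in CDC50A KD. Tmem30a, which encodes CDC50A, stood at 78.6% in the libraries labelled CDC50A KD against 80.8% in ORP5/8 KD and 87.9% in ATP11A/C KD, so its level did not set apart the group named for it.

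Bmf rose and both Bcl2 and Bcl2l1 fell in each KD group against Parental, whereas Bcl2l11 (BIM) rose in ORP5/8 KD and fell in CDC50A KD. A gene was called where the adjusted p of edgeR's quasi-likelihood test was under 0.05 over all 13107 genes. In ORP5/8 KD 6 of the 9 members were called, 2 higher and 4 lower, where 46.2% of all genes were called (22.0% higher and 24.3% lower). In ATP11A/C KD 6 were called, 2 higher and 4 lower, where 37.6% of all genes were called (17.4% higher and 20.2% lower). In CDC50A KD 4 were called, 1 higher and 3 lower, where 50.4% of all genes were called (24.3% higher and 26.1% lower). The family's median log2 fold change was -0.09, -0.07 and -0.04, beside 0.02, 0.01 and -0.01 over all tested genes. With upper-quartile scaling 4270 genes were higher and 2479 lower in ORP5/8 KD, in place of 2878 and 3181, while 2 members were higher and 4 lower under both. These 3 comparisons share the Parental libraries. In bulk RNA, fewer cells with a transcript and less transcript per cell cannot be told apart.

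**Figure D1:**
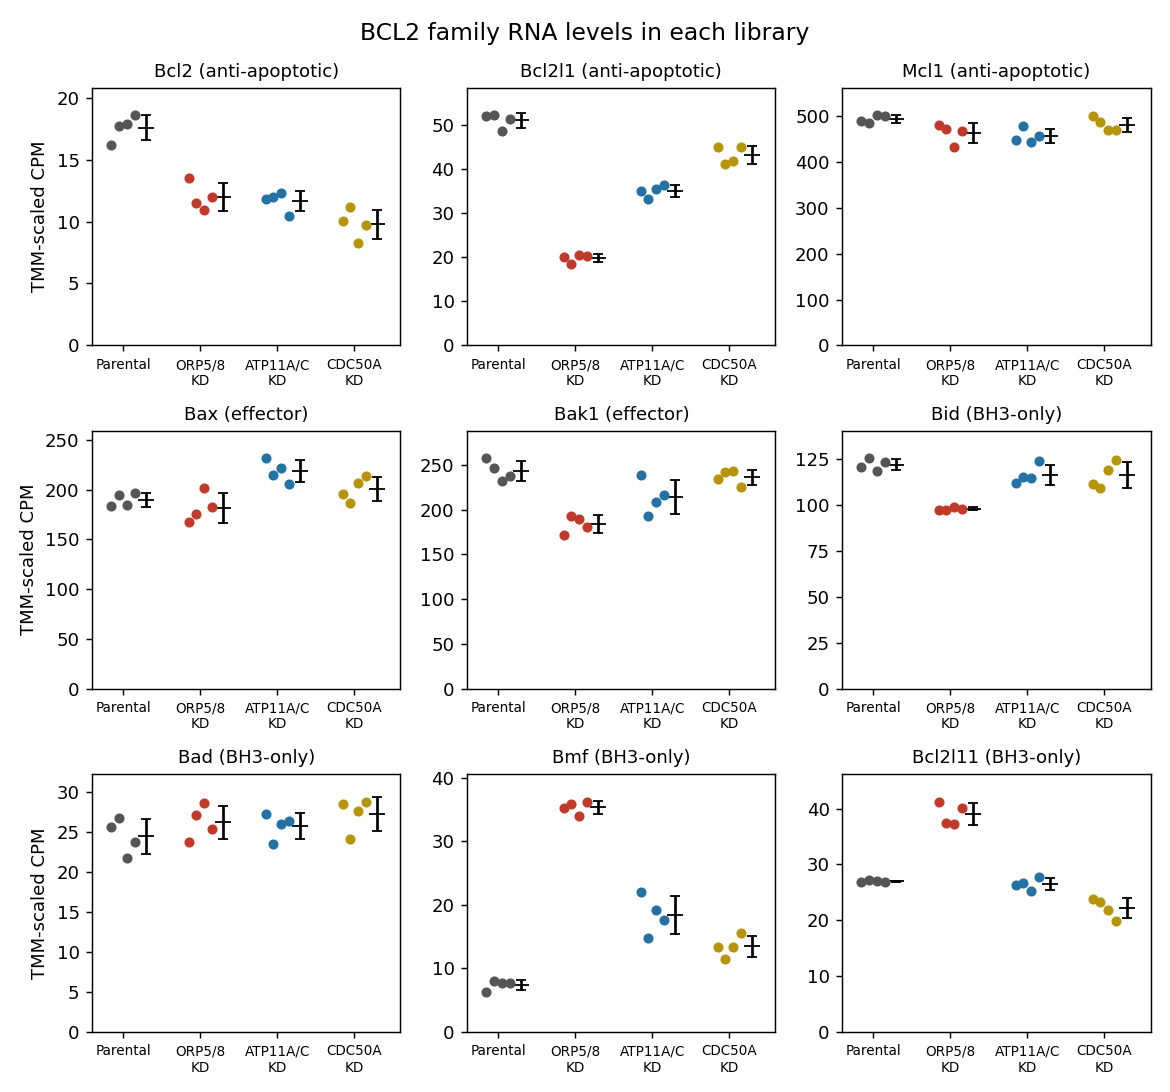
CPM of each BCL2 family gene (1 panel each, vertical axis) in the 16 libraries (points) by group, with the group mean and its SD. Bmf lies lowest in the 4 Parental libraries and highest in the 4 ORP5/8 KD libraries (34.0 to 36.3 CPM), Bcl2l1 shows the opposite order, and the points for Bad overlap in all groups.

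The genes lie at separate places in the mouse genome (mm10, with genes of GENCODE M21), except that Bmf, Bcl2l1 and Bcl2l11 share a chromosome. Bmf is at chr2:118528757-118549687 on the minus strand, Bcl2l11 at chr2:128126038-128162547 on the plus strand, and Bcl2l1 at chr2:152780668-152831728 on the minus strand. Bcl2 is at chr1:106538178-106714274 (minus), Mcl1 at chr3:95658788-95663176 (plus), Bax at chr7:45461697-45466898 (minus), Bak1 at chr17:27019810-27029009 (minus), Bid at chr6:120891930-120916853 (minus) and Bad at chr19:6941861-6951899 (plus). The counts are per gene, so splice forms with opposite roles, such as the long and short forms of Bcl2l1, were not resolved. Bax counts carried decimals in 16 of 16 libraries, which means that some of its reads were shared with another record, and the other 8 members had whole counts in all libraries.

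The sequences upstream of the outermost annotated start are shown for the 3 genes called in all comparisons with Parental and for Bcl2l11, which moved in opposite directions. They are from RefSeq (GRCm38.p6), read 5′ to 3′ on the strand of the gene, and lie outside its exons: chr2:118549688-118549936 for Bmf, chr2:152831729-152831978 for Bcl2l1, chr1:106714291-106714540 for Bcl2 (all minus) and chr2:128125788-128126037 for Bcl2l11 (plus). Capitals mark matches, on either strand, to any of 6 motifs searched.
Bmf: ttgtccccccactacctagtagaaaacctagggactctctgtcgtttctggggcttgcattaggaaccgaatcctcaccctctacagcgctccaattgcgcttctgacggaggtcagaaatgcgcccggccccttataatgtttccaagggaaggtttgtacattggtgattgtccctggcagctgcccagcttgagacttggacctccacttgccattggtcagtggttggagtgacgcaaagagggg
Bcl2l1: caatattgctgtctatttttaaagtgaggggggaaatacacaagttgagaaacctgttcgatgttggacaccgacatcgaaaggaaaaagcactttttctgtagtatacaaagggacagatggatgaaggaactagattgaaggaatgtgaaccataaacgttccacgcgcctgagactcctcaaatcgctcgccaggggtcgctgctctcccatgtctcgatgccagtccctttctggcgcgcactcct
Bcl2: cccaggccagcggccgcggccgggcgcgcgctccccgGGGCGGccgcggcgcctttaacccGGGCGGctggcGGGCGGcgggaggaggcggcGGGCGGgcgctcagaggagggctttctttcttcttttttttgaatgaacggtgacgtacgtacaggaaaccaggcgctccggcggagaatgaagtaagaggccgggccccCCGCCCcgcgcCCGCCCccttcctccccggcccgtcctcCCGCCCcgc
Bcl2l11: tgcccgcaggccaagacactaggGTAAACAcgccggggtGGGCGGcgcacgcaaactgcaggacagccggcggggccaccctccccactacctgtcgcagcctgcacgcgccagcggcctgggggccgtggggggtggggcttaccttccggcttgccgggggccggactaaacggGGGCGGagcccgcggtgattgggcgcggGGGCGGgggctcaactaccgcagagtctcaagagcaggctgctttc
Bmf and Bcl2l1 held no match. Bcl2 held 7 GC boxes (GGGCGG, in 33.0% of 32536 windows), and Bcl2l11 held 3 of them and 1 FOXO motif (GTAAACA, in 3.17% of windows). The windows behind these shares are the distinct 250-base sequences upstream of all listed starts. Unlike the 4 shown, they include inner starts and stretches inside exons. The other motifs were the E-box CACGTG (6.04% of windows), the AP-1 motif TGACTCA (4.45%), the STAT motif TTCNNNGAA (7.04%) and the NF-kB motif (3.92%). A match describes letters and not a bound site, and its absence concerns this window alone.

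Of the guardians, Bcl2l1 (BCL-XL), which holds BH3-only proteins and effectors at the mitochondrion, had the widest range of group means. Its level was 52.0, 52.1, 48.4 and 51.2 CPM in the Parental libraries, 20.1, 18.4, 20.5 and 20.2 in ORP5/8 KD, 34.9, 33.1, 35.5 and 36.4 in ATP11A/C KD libraries, with 44.9, 41.0, 41.7 and 44.9 in CDC50A KD. No 2 groups overlapped, and the order from low to high was ORP5/8 KD, ATP11A/C KD, CDC50A KD, Parental, with a called difference at each step. The mean stood at 38.8%, 68.7% and 84.6% of Parental. The log2 fold changes were -1.37 ± 0.05 (SE; edgeR adjusted p = 3.02e-15), -0.54 ± 0.05 (1.63e-08) and -0.24 ± 0.05 (0.000411).

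Bcl2, the founding guardian, fell in all KD groups by amounts that were closer together. The Parental libraries had 16.2, 17.7, 17.9 and 18.6 CPM, those of ORP5/8 KD 13.5, 11.5, 10.9 and 12.0, those of ATP11A/C KD 11.8, 12.0, 12.3 and 10.4, and those of CDC50A KD 10.0, 11.2, 8.30 and 9.68. Every KD library lay below every Parental one, while the KD groups overlapped with each other. Means stood at 68.1%, 66.2% and 55.7% of Parental, with log2 fold changes of -0.55 ± 0.09 (SE; edgeR adjusted p = 1.62e-05), -0.59 ± 0.09 (1.08e-05) and -0.85 ± 0.09 (8.78e-08). The lowest Bcl2 mean was in CDC50A KD, the KD group with the highest Bcl2l1 mean.

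Mcl1, a short-lived guardian that myeloid cells depend on, had the narrowest range of group means in the family, 0.12 on the log2 scale. It had 489, 485, 502 and 501 CPM in Parental, 481, 472, 433 and 467 in ORP5/8 KD, 448, 478, 443 and 457 in ATP11A/C KD libraries, with 500, 486, 469 and 470 in CDC50A KD. Libraries of ORP5/8 KD and of ATP11A/C KD all lay below Parental, and those of CDC50A KD overlapped with it. The log2 fold change was -0.09 ± 0.04 (SE; edgeR adjusted p = 0.0644) in ORP5/8 KD, -0.12 ± 0.04 (0.0287) for ATP11A/C KD and -0.04 ± 0.04 (0.447) in CDC50A KD. The call in ATP11A/C KD was lost without any 1 of 7 libraries (Parental 1 to 4 and ATP11A/C KD 1, 3 and 4; adjusted p of 0.0543 to 0.123), and DESeq2 called the difference in ORP5/8 KD (adjusted p = 0.0384).

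The effectors changed less than Bmf, Bcl2l1 and Bcl2. Bak1, which sits in the outer mitochondrial membrane, fell in ORP5/8 KD. Its level was 257, 247, 232 and 238 CPM in Parental, 171, 193, 190 and 180 in ORP5/8 KD, 238, 193, 209 and 216 in ATP11A/C KD libraries, with 235, 242, 244 and 225 in CDC50A KD. Only the ORP5/8 KD libraries all lay below Parental, and 1 ATP11A/C KD library reached into the Parental range. Log2 fold changes were -0.41 ± 0.06 (SE; edgeR adjusted p = 3.55e-06) in ORP5/8 KD, -0.18 ± 0.06 (0.0122) for ATP11A/C KD and -0.04 ± 0.06 (0.542) in CDC50A KD. The ATP11A/C KD call was lost when Parental 1 was left out (adjusted p = 0.0751), as it was for libraries 2 (0.0716) and 3 (0.0524) of ATP11A/C KD.

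Bax, the effector that moves from the cytosol to mitochondria, rose in ATP11A/C KD. Parental libraries had 184, 195, 184 and 197 CPM, ORP5/8 KD libraries 167, 176, 202 and 182, ATP11A/C KD libraries 231, 215, 222 and 206, and CDC50A KD libraries 196, 187, 206 and 213. The ATP11A/C KD libraries all lay above Parental, and the other KD groups overlapped with it. The log2 fold change was 0.20 ± 0.06 (SE; edgeR adjusted p = 0.00614) in ATP11A/C KD, -0.06 ± 0.06 (0.369) in ORP5/8 KD and 0.08 ± 0.06 (0.24) in CDC50A KD. No effector was called in CDC50A KD, where edgeR put 0 of the 2 under an unadjusted p of 0.05 and DESeq2 called 0.

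Bmf, a BH3-only protein that binds guardians and is otherwise held on the cytoskeleton, had the widest range of the family. It had 6.31, 7.96, 7.68 and 7.65 CPM in the Parental libraries, 35.2, 36.0, 34.0 and 36.3 in ORP5/8 KD, 22.0, 14.8, 19.2 and 17.6 in ATP11A/C KD libraries, with 13.3, 11.5, 13.4 and 15.5 in CDC50A KD. Each KD library lay above all Parental libraries, and overlap occurred between ATP11A/C KD and CDC50A KD alone. The mean was 4.78, 2.49 and 1.82 times that of Parental. The log2 fold changes were 2.26 ± 0.11 (SE; edgeR adjusted p = 1.39e-13), 1.32 ± 0.11 (2.44e-09) and 0.87 ± 0.11 (1.38e-06). From low to high the order was Parental, CDC50A KD, ATP11A/C KD, ORP5/8 KD, with a called difference at each step.

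Bcl2l11 encodes BIM, a BH3-only protein that can activate Bax and Bak1 directly and binds all guardians. Its level was 26.8, 27.1, 27.0 and 26.8 CPM in Parental, 41.3, 37.4, 37.3 and 40.1 in ORP5/8 KD, 26.2, 26.6, 25.2 and 27.7 in ATP11A/C KD libraries, with 23.8, 23.2, 21.9 and 19.9 in CDC50A KD. All ORP5/8 KD libraries were above and all CDC50A KD libraries below the Parental range, and those of ATP11A/C KD overlapped with it. The log2 fold change was 0.53 ± 0.06 (SE; edgeR adjusted p = 9.64e-08) in ORP5/8 KD, -0.28 ± 0.06 (0.000436) in CDC50A KD and -0.03 ± 0.06 (0.751) in ATP11A/C KD.

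Bid, which caspase-8 cleaves to carry a death receptor signal to mitochondria, fell in ORP5/8 KD. It had 121, 126, 119 and 123 CPM in Parental, 97.6, 97.5, 99.2 and 98.0 in ORP5/8 KD, 112, 115, 115 and 124 in ATP11A/C KD libraries, with 112, 109, 119 and 125 in CDC50A KD. The ORP5/8 KD libraries lay below all others. The log2 fold change was -0.32 ± 0.04 (SE; edgeR adjusted p = 4.70e-06) in ORP5/8 KD and -0.07 ± 0.04 in both ATP11A/C KD (0.247) and CDC50A KD (0.198). Without CDC50A KD 4 the latter was called (adjusted p = 0.0339).

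Bad, whose protein is kept inactive by phosphorylation, was called in none of the comparisons. Its libraries ran from 21.7 to 26.8 CPM in Parental, 23.7 to 28.6 in ORP5/8 KD, 23.5 to 27.3 for ATP11A/C KD and 24.2 to 28.8 in CDC50A KD, and all groups overlapped. The largest log2 fold change against Parental was 0.16 ± 0.08 (SE; edgeR adjusted p = 0.083) in CDC50A KD, and leaving out Parental 2 or CDC50A KD 2 turned it into a call (adjusted p of 0.0337 and 0.0429).

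**Figure D2:**
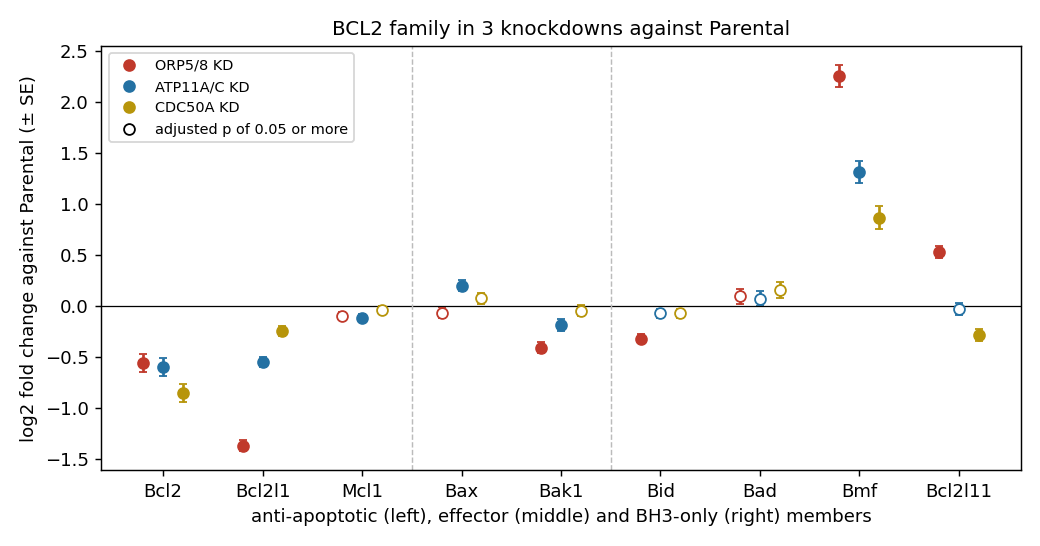
Log2 fold change against Parental (vertical axis) of each family member (horizontal axis, by role), with its SE, for the 3 KD groups; filled points had an adjusted p under 0.05. Bmf lies highest, at 2.26 in ORP5/8 KD, and Bcl2l1 lowest, at -1.37 in the same group.

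The KD groups were also compared with each other, without Parental. Between ORP5/8 KD and ATP11A/C KD 6 members were called, 2 higher and 4 lower in ORP5/8 KD, where 38.7% of all genes were called (18.2% higher and 20.4% lower). Bmf and Bcl2l11 were higher in ORP5/8 KD, by 0.94 and 0.56 on the log2 scale (edgeR adjusted p of 9.92e-08 and 6.71e-08), and Bcl2l1, Bax, Bid and Bak1 were lower, at -0.82, -0.27, -0.25 and -0.22. Bcl2, Mcl1 and Bad were not called, with log2 differences of 0.04 ± 0.09, 0.02 ± 0.04 and 0.02 ± 0.07 (SE).

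Against CDC50A KD, ORP5/8 KD had 7 called members, 3 higher and 4 lower, where 56.8% of all genes were called (27.5% higher and 29.4% lower). The widest differences were 1.39 for Bmf (edgeR adjusted p = 2.37e-10), -1.13 for Bcl2l1 (1.64e-13) and 0.82 for Bcl2l11 (1.75e-10) on the log2 scale. Bcl2 was higher in ORP5/8 KD by 0.30 (0.00721), while Bak1 (-0.36), Bid (-0.25) and Bax (-0.14) were lower. The Bax call (adjusted p = 0.0322) was lost without any 1 of ORP5/8 KD 1, 2 and 4 and CDC50A KD 1, 3 and 4 (0.057 to 0.165).

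Between CDC50A KD and ATP11A/C KD 4 members were called, 1 higher and 3 lower in CDC50A KD, where 26.2% of all genes were called (13.5% higher and 12.7% lower). Bcl2l1 was higher in CDC50A KD by 0.30 (edgeR adjusted p = 0.000204), and Bmf (-0.45, 0.00284), Bcl2l11 (-0.25, 0.0033) and Bcl2 (-0.26, 0.0369) were lower. The Bcl2 call was lost without any 1 of ATP11A/C KD 2 and 3 and CDC50A KD 1, 3 and 4 (adjusted p of 0.0507 to 0.127). Bak1 was called without ATP11A/C KD 1 (0.0116) and Bax without CDC50A KD 4 (0.0451).

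Levels of different genes were compared per kilobase of exon. The length took in the exons of all transcripts of a gene in GENCODE M21, whether or not those transcripts were expressed. In Parental, Mcl1 had 145 CPM per kilobase, Bax 120, Bak1 101, Bid 34.4, Bcl2l1 11.1, Bad 9.55, Bcl2l11 3.36, Bcl2 1.92 and Bmf 1.41. Mcl1, Bax and Bak1 thus held 33.8%, 28.2% and 23.6% of the summed level of the 9 members, and Bmf 0.329%. Other BCL2 family genes were not in this sum. In ORP5/8 KD the share of Bmf was 1.76% and that of Bcl2l1 went from 2.60% to 1.13%, while Mcl1, Bax and Bak1 held 35.5%, 30.2% and 19.96%. Bmf, which had the widest fold change, was thus the least abundant of the 9 members in Parental. Bcl2l1 lay in the middle there, below Mcl1, Bax, Bak1 and Bid.

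The balance of the family was summarised per library as the mean log2(CPM + 0.5) of the 6 pro-apoptotic members minus that of the 3 guardians, which weights each gene equally. It was -0.45, -0.41, -0.50 and -0.49 in Parental, 0.40, 0.58, 0.63 and 0.52 in ORP5/8 KD, 0.24, 0.04, 0.13 and 0.19 for ATP11A/C KD, and -0.03, -0.11, 0.13 and 0.05 in CDC50A KD. Every KD library lay above every Parental library, those of ORP5/8 KD were highest, and ATP11A/C KD and CDC50A KD overlapped. The members were chosen with results of these data known, so the balance is given as a description with no test. The mean exceeded that of Parental by 1.00 in ORP5/8 KD, 0.62 for ATP11A/C KD and 0.48 in CDC50A KD, against SDs between libraries of 0.04 to 0.10. The guardian mean was lower by 0.66, 0.41 and 0.37 and the pro-apoptotic mean higher by 0.34, 0.21 and 0.11, in the same order of groups.

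The members contributed to this difference in another order in each group. In ORP5/8 KD, Bcl2l1 contributed 0.45, Bmf 0.36 and Bcl2 0.18, and the falls of Bak1 and Bid took away 0.07 and 0.05. In ATP11A/C KD, Bmf contributed 0.21, Bcl2 0.19 and Bcl2l1 0.18. In CDC50A KD the largest part came from Bcl2, with 0.27, followed by Bmf with 0.14 and Bcl2l1 with 0.08. Without Bmf the balance still differed from Parental by 0.63, 0.41 and 0.33.

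Weighting by abundance gave another picture. The log2 ratio of summed pro-apoptotic to summed guardian CPM per kilobase was 0.78 ± 0.06 (SD, n = 4) in Parental and 0.77 ± 0.14, 0.96 ± 0.10 and 0.86 ± 0.08 in the KD groups. The difference from Parental was -0.01 in ORP5/8 KD, 0.18 for ATP11A/C KD and 0.08 in CDC50A KD. Over these 9 members the equal-weight order with ORP5/8 KD on top was therefore not seen. The guardians Bcl2a1b and Bcl2a1d, with 817 and 863 bases of exon, were not in these sums. Bcl2a1b had 23.1, 13.7, 27.0 and 29.2 CPM in Parental and the KD groups, and Bcl2a1d 28.9, 18.4, 36.7 and 40.5. The summed ratio with them was not tested. Adding further family genes to the equal-weight balance gave differences from Parental of 0.69, 0.19 and 0.07 in the KD groups. The added genes took in tested ones such as Bcl2l2 and Bcl2a1d, but not all tested ones. They also took in the untested Bok, Hrk, Bik and Bcl2a1a, with 0 to 30 counts summed over 16 libraries. The log2 fold changes of the added pro-apoptotic genes were 0.01, -0.17 and -0.47 for Bbc3 and -0.07, 0.15 and -0.19 for Pmaip1. Those of the added guardians were -0.65, 0.34 and 0.49 for Bcl2a1d and -0.75, 0.23 and 0.34 for Bcl2a1b. For Bcl2l2 they were -0.39, -0.05 and -0.44. Which of the added genes moved the balance was not tested. The ratio of Bax to Bcl2 CPM, often quoted for apoptosis, was 10.8 ± 0.46 (SD, n = 4) in Parental and 15.3 ± 2.51, 18.8 ± 0.94 and 20.8 ± 3.47 in the KD groups.

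**Figure D3:**
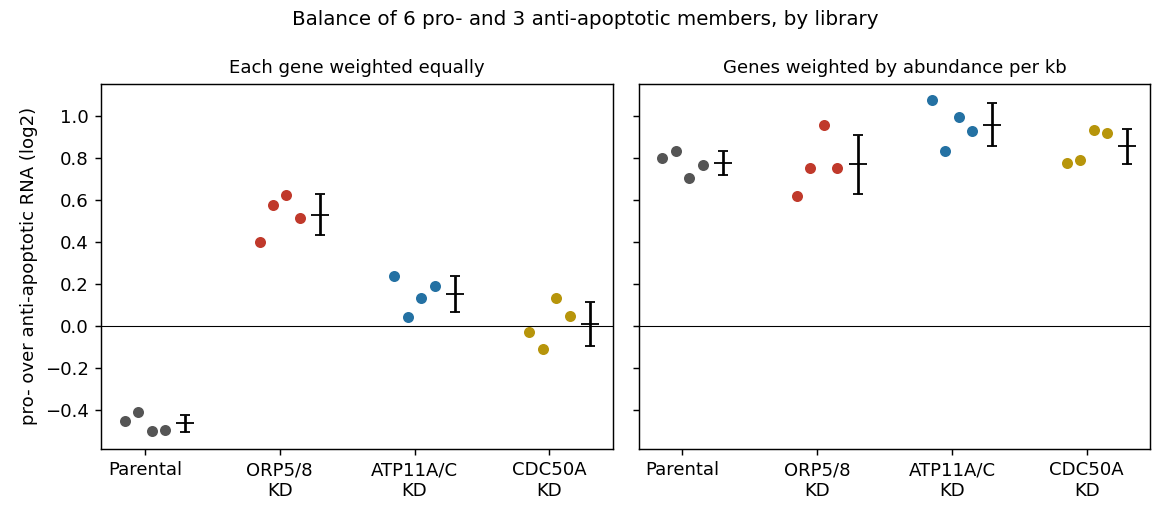
Balance of pro-apoptotic members over guardians per library (points, with group mean and SD), as the equal-weight difference in mean log2(CPM + 0.5) and as the log2 ratio of summed CPM per kilobase. With equal weights all 12 KD libraries lie above the 4 Parental libraries, and with summed levels ORP5/8 KD (mean 0.77) lies at the level of Parental (0.78).

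The next lists are read against all tested genes, of which edgeR called 46.2% in ORP5/8 KD (22.0% higher, 24.3% lower), 37.6% for ATP11A/C KD (17.4% and 20.2%) and 50.4% for CDC50A KD (24.3% and 26.1%), with median log2 fold changes of 0.02, 0.01 and -0.01.

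Among 17 other BCL2 family genes, 9 were tested. Of these, 1 was higher and 3 lower in ORP5/8 KD, 2 higher and 2 lower in ATP11A/C KD, and 3 higher and 4 lower in CDC50A KD. Called were thus 4, 4 and 7 of 9, against 46.2%, 37.6% and 50.4% of all tested genes. The median log2 fold change was -0.07, 0.10 and -0.19, against 0.02, 0.01 and -0.01 over all tested genes. Bcl2a1d, a guardian of the A1 group that is induced in activated myeloid cells, fell in ORP5/8 KD (18.4 against 28.9 CPM, log2 fold change -0.65, edgeR adjusted p = 1.43e-07) and rose in ATP11A/C KD (0.34) and CDC50A KD (0.49). Its near-identical copy Bcl2a1b fell in ORP5/8 KD (-0.75) and rose in CDC50A KD (0.34), and both had decimal counts in 16 of 16 libraries, so the split of reads between them is uncertain. Bcl2l2 (BCL-W), another guardian, fell in ORP5/8 KD (-0.39) and CDC50A KD (-0.44), and Bnip3l, a mitophagy receptor, fell in ATP11A/C KD (-0.43) and CDC50A KD (-0.31). The other 8, Bcl2l10, Bcl2a1a, Bcl2a1c, Bok, Hrk, Bik, Bcl2l14 and Bcl2l15, had 0 to 30 counts summed over 16 libraries.

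Further genes that act before or after the family were read from 5 more lists. Of 10 tested apoptosome genes and caspases, 2 were higher and 3 lower in ORP5/8 KD, 2 and 2 in ATP11A/C KD, and there were 2 and 3 in CDC50A KD. These 5, 4 and 5 of 10 stand beside 46.2%, 37.6% and 50.4% of all tested genes, so the shares were near the background. Casp8, which cleaves Bid, fell in ORP5/8 KD (-0.33, edgeR adjusted p = 1.73e-05). Casp9, the initiator caspase of the apoptosome, fell in CDC50A KD (-0.27) and in ATP11A/C KD (-0.18), the latter call being lost without Parental 1 or 2 or ATP11A/C KD 2 or 3 (adjusted p of 0.0602 to 0.119).

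Of 8 inhibitor-of-apoptosis genes and their antagonists, 3 were higher and 3 lower in ORP5/8 KD, 1 and 4 in ATP11A/C KD, and there were 1 and 6 in CDC50A KD. The totals of 6, 5 and 7 of 8 stand beside a background of 46.2%, 37.6% and 50.4%, and the medians of 0.00, -0.12 and -0.27 beside 0.02, 0.01 and -0.01. Xiap, which inhibits caspases directly, fell from 133 CPM to 108, 102 and 95.7 (log2 -0.30, -0.38 and -0.47). Birc3 (cIAP2) fell from 45.6 CPM to 23.3, 36.5 and 38.5. Xaf1, an interferon-induced antagonist of Xiap, fell from 57.1 CPM to 10.8, 29.6 and 34.1 (log2 -2.40, -0.95 and -0.74). Htra2, a mitochondrial antagonist, fell in CDC50A KD (-0.29). Members of the list also rose. Diablo, another antagonist, rose in all KD groups (0.16, 0.20 and 0.15, edgeR adjusted p of 0.0155, 0.00602 and 0.0285). Birc5 (survivin) rose in ORP5/8 KD (0.17, 0.00691). Both Diablo and Birc5 were named after their values were seen.

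In the death receptor pathway, 9 genes were tested, of which 5 were lower in ORP5/8 KD, with 1 higher and 4 lower in ATP11A/C KD and 1 and 5 in CDC50A KD. Called in all were 5, 5 and 6 of 9, with 46.2%, 37.6% and 50.4% called over all tested genes. The median log2 fold change was -0.60, -0.15 and -0.34, and that of all tested genes 0.02, 0.01 and -0.01. Tnfsf10 (TRAIL) had 2.56 CPM in Parental and 0.115, 0.551 and 0.944 in the KD groups (log2 -4.45, -2.18 and -1.45). Tnf fell from 65.7 to 19.9 CPM in ORP5/8 KD (-1.72, edgeR adjusted p = 5.25e-14) and fell in CDC50A KD (-0.34). The receptor Fas, at a low 2.19 CPM in Parental, fell in the same groups to 0.433 and 1.30 CPM (-2.33 ± 0.27 and -0.76 ± 0.24, SE). Cflar (c-FLIP), which blocks caspase-8, fell in all KD groups (-0.60, -0.34 and -0.53). Of the 7 mitochondrial partners of Bax, Bak1 and Bid, 1 was called in ORP5/8 KD: Vdac2, a channel that binds Bak1 and Bax, fell (-0.21). In ATP11A/C KD and CDC50A KD edgeR called 0 of these 7, with 1 and 2 at an unadjusted p under 0.05, and DESeq2 called 0 and 1. In CDC50A KD the count rose to 1 under upper-quartile scaling, with the replicate number as a block or without Parental 2, and to 2 in a fit of the compared groups alone. Without ATP11A/C KD 2 the count in that group was 1, and without ORP5/8 KD 1 it was 2 in ORP5/8 KD.

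Of 15 tested regulators that act on the proteins of the family, 1 was higher and 7 lower in ORP5/8 KD, 2 and 1 in ATP11A/C KD, and there were 4 and 1 in CDC50A KD. The totals were 8, 3 and 5 of 15, beside 46.2%, 37.6% and 50.4% of all tested genes. Without Parental 3 or ORP5/8 KD 3 the first fell to 5, and without Parental 3 or ATP11A/C KD 1 the next fell to 1. Dynll1, the dynein light chain that holds BIM, fell in ORP5/8 KD (-0.26, edgeR adjusted p = 0.00045). In CDC50A KD it rose by 0.15 (adjusted p = 0.0267), a call lost without Parental 3 or 4 or CDC50A KD 1, 2 or 3 (0.0557 to 0.142). Akt2 and Rps6ka1, kinases of families that phosphorylate Bad, rose in CDC50A KD (0.31 and 0.33), and Mapk8 (JNK1), which can phosphorylate BIM and Bmf, fell there (-0.36). Smaller calls for Akt2 (0.16) and Rps6ka1 (0.17) in ATP11A/C KD were lost without Parental 3 (adjusted p of 0.0595 and 0.07) or ATP11A/C KD 1 (0.0587 and 0.109). The call for Mapk8 in ORP5/8 KD (-0.20, 0.0378) was lost without any 1 of Parental 1, 3 and 4 and ORP5/8 KD 2, 3 and 4 (0.058 to 0.159), with the replicate number as a block (0.0544), and under upper-quartile scaling (-0.12, 0.187).

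**Figure D4:**
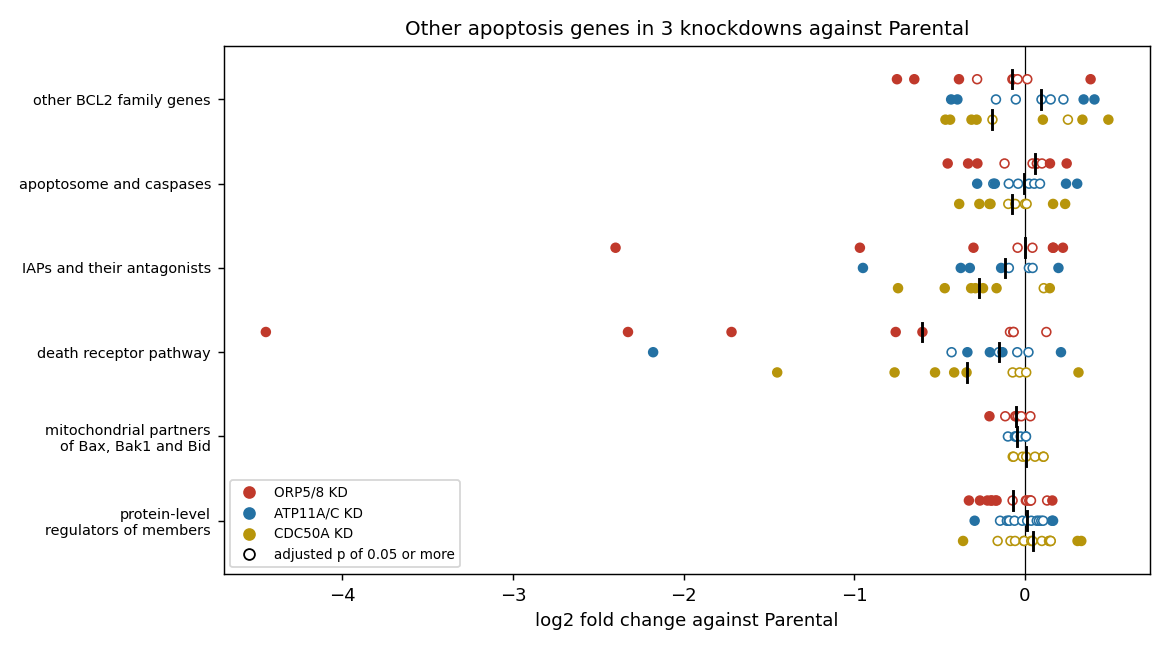
Log2 fold change against Parental (horizontal axis) of the tested genes of 6 apoptosis lists, with 1 row per KD group in each list; filled points were called and black bars mark medians. The death receptor list lies to the left in ORP5/8 KD (median -0.60), and the mitochondrial partners lie near 0.

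Genes whose pattern over the 16 libraries was most like that of Bmf and Bcl2l1, the members with the widest ranges, were taken from 8618 genes by the Pearson r of log2(CPM + 0.5). The libraries fall into 4 groups, so r mainly compares group means, and it is given as a description with no p. Closest to Bmf were Sesn1 (r = 0.98), a stress-induced inhibitor of mTORC1 signalling, Cnnm1 (0.97), Stc2 (0.97), a secreted stress-induced glycoprotein, and Socs3 (0.97), a feedback inhibitor of cytokine signalling. Sesn1 had 52.8, 133, 89.6 and 72.0 CPM in Parental and the KD groups. Closest to Bcl2l1 were Oas1a, Apol9b, Irf7 and Mov10 (r of 0.99 each), of which Irf7 is a transcription factor of the interferon response and Oas1a an interferon-induced gene. Irf7 had 632, 43.9, 249 and 347 CPM in Parental and the KD groups, and Oas1a 281, 76.4, 174 and 224. Both were picked for likeness to Bcl2l1, so sharing its order of groups is no separate result. Their range was wider than that of Bcl2l1.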

How the data were processed

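Per the labels' protocols, stranded mRNA libraries were made from total RNA and sequenced as paired-end reads. Per the submitters' processing notes, tools named are Trim Galore 0.5.0, STAR 2.7.5a, Picard and RSEM, with mm10. RSEM expected counts for each gene are what the authors deposited, with decimals in 4.64% of the values, which were rounded to whole counts here. The 92 spike-in records summed to 0 and were left out. The annotation version behind the counts is not given in the sources used here. One Parental column was matched to its sample by library name, since its numeric prefix differs from the label.

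Genes were kept by filterByExpr (minimum count 10). All 16 libraries were fitted together with edgeR 4.0.16 (R 4.3.3; TMM scaling, quasi-likelihood test, Benjamini-Hochberg adjustment per comparison, threshold 0.05). CPM are TMM-scaled, and SE is the estimate over the square root of its F statistic. The test was checked on simulated counts in which all genes had the same spread and few genes changed. That check does not bear on the scaling where as many genes are called as here. Library totals of 24020891 to 41543050 counts left 205 or more counts for each member in every library. Alternatives were DESeq2 1.42.0 and its size factors, upper-quartile scaling, other low-count filters, the compared groups alone, a replicate block and leaving out each library.

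The members and gene lists were chosen with earlier results of these data known. Genes named are the 9 members, the targeted genes, up to 4 called genes per list by smallest adjusted p against Parental, and the 4 genes most like each of the 2 members of widest range. The lists cover other BCL2 family genes, apoptosome and caspases, IAPs and antagonists, the death receptor pathway, mitochondrial partners and protein-level regulators. Coordinates came from GENCODE M21 and upstream sequences from RefSeq GRCm38.p6, where all 9 members were matched. Some genes that this rule names are withheld and not reported here.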

Additional observations from a re-analysis of the deposited data

Results flagged for a closer look

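Bcl2l11 (BIM) was the member called in opposite directions against Parental in 2 KD groups: all 4 ORP5/8 KD libraries lay above the Parental range and all 4 CDC50A KD libraries below it. The direct comparison of ORP5/8 KD with CDC50A KD gave a log2 difference of 0.82 ± 0.06 (SE; edgeR adjusted p = 1.75e-10), with means of 39.0 and 22.2 CPM, and values from 0.78 to 0.88 under all 15 alternatives. None of 40 groups of 4 values, the 9 members and the balance in each group, held a library beyond Dixon's limit, where chance gives about 1 in 20.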

How the results depend on the processing

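The number of members called stayed within 1.5 times under every alternative, though a count of 6 or 7 of 9 could not rise past that. Against Parental it was 6 to 7 of 9 in ORP5/8 KD, 4 to 6 for ATP11A/C KD and 4 to 5 in CDC50A KD. It was 6 between ORP5/8 KD and ATP11A/C KD, and 6 to 7 between ORP5/8 KD and CDC50A KD. Between CDC50A KD and ATP11A/C KD it was 3 to 5. Over all tested genes the calls against Parental ran from 5499 to 6749, 4284 to 5210 and 5923 to 6930. Between KD groups, in the order above, they ran from 4381 to 5213, 6847 to 7493 and 2361 to 3841. Same-numbered libraries did not deviate together (correlations of -0.36 to 0.17), and the replicate block left the member counts at 6, 6, 4, 6, 7 and 4. The calls of Bmf, Bcl2 and Bcl2l1 against Parental held under all 15 alternatives. Upper-quartile scaling moved the split of all called genes in ORP5/8 KD from 2878 higher and 3181 lower to 4270 and 2479, in ORP5/8 KD against CDC50A KD from 3603 and 3848 to 4463 and 2891, and in ORP5/8 KD against ATP11A/C KD from 2392 and 2678 to 3095 and 2018. It removed the call of Mcl1 in ATP11A/C KD (adjusted p = 0.0792) and of Bax between ORP5/8 KD and CDC50A KD (0.267). Those calls were also lost for Mcl1 with no low-count filter (0.0752), and for Bax with at least 1 CPM in 4 libraries required (0.0654) and with the compared groups alone (0.0615). Bcl2 between CDC50A KD and ATP11A/C KD was not called with no low-count filter (0.0569) or with the compared groups alone (0.0612), and Bak1 there became called with no low-count filter (0.0402). The cause was not tested.

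The balance against Parental was -0.00655, 0.183 and 0.0803 in ORP5/8 KD, then ATP11A/C KD, then CDC50A KD by summed CPM per kilobase. With equal weights it was 0.63, 0.41 and 0.33 without Bmf. It was 0.693, 0.191 and 0.0738 with further family genes added, some of them with almost no counts. Leaving out 1 library gave 0.96 to 1.04, 0.59 to 0.65 and 0.44 to 0.52. Signs turned for uncalled differences near 0: under upper-quartile scaling Bax in ORP5/8 KD against Parental (0.0109), Mcl1 and Bad in ORP5/8 KD against CDC50A KD (0.0135 and 0.00652), and without a low-count filter Bid in CDC50A KD against ATP11A/C KD (0.00963). With 1 library left out, uncalled log2 differences ran from -0.0418 to 0.00476 for Bcl2l11 in ATP11A/C KD against Parental, from -0.0184 to 0.0840 for Bcl2 and -0.0188 to 0.0712 for Bad in ORP5/8 KD against ATP11A/C KD, and from -0.0480 to 0.0275 for Bid in CDC50A KD against ATP11A/C KD.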

Other observations

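Between KD groups, Bcl2a1d and Bcl2a1b, guardians of the A1 group, were lower in ORP5/8 KD than in CDC50A KD by log2 differences of -1.14 and -1.09 (edgeR adjusted p of 1.94e-11 and 3.90e-09), and lower than in ATP11A/C KD by -0.99 and -0.98. Birc3 was lower in ORP5/8 KD than in CDC50A KD (-0.72) and ATP11A/C KD (-0.64), and Casp9 was higher (0.31 and 0.22). Of the 58 tested genes on all lists, 12 were higher and 24 lower in ORP5/8 KD than in CDC50A KD. Of all tested genes 56.8% were called there (27.5% higher and 29.4% lower). Upper-quartile scaling made this 4463 genes higher and 2891 lower, in place of 3603 and 3848.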
